A study of Mus musculus with 12 samples.

Results

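The transcriptome of induced pluripotent stem cells (iPSC, 3 libraries) was set against that of reprogramming cultures harvested at day 4 and labelled with Dux overexpression (D4_DUX, 3 libraries). A gene was a member when it had an FPKM, that is counted fragments scaled by gene length and library depth, of at least 1 in at least 3 of these 6 libraries. Of the 40384 genes in the table, 16319 met this rule. The comparison measures how far the D4_DUX cultures still were from iPSC, and for which genes they lay beyond the iPSC level or farther from it than the day 4 control.

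The fibroblasts and day 4 cultures are labelled as cells of the 4F2A mouse, which carries doxycycline-inducible transgenes for Pou5f1 (Oct4), Sox2, Klf4 and Myc. One growth text serves all 12 libraries: fibroblasts of mid-gestation homozygous 4F2A embryos, described as male, in serum-replacement medium with LIF and 2 μg/mL doxycycline. Beside iPSC, whose cell line label is iPSC cell with no treatment given, and D4_DUX (treatment OE-DUX, 48 h of Dux overexpression while the cells were reprogrammed), the series holds D4 (treatment OE-NC, the control of the same day) and MEF, the starting fibroblasts, with 3 libraries each. The labels say neither how the iPSC were derived and passaged, nor whether replicates were separate cultures, so the p-values measure the spread between these libraries, which may be technical.

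Reprogramming of fibroblasts starts with the loss of mesenchymal and the gain of epithelial genes, and the endogenous pluripotency network, with Nanog, Esrrb and Zfp42, is switched on late. Dux is a homeobox transcription factor of the early embryo that activates genes of the 2-cell stage. In iPSC the network is self-sustaining, the cell cycle is fast with a short G1 phase, and most fibroblast genes are low.

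Counted fragments per library were estimated at 22510000 to 28140000 from the steps between low FPKM values and from gene lengths. In each library 14287 to 15834 genes reached an FPKM of 1. Duxf3, the annotated Dux gene, was listed at 0 in all 3 libraries labelled D4_DUX, and at 0.00385, 0.00384 and 0.0247 FPKM in iPSC. These values are below the level estimated for 3 fragments in every library of both groups. The overexpression on the label is therefore not visible in this gene, and D4_DUX stands here for the libraries with that label. Xist, the long RNA of the inactive X chromosome in female cells, was at 17.3 to 29.0 FPKM over the 12 libraries, and Ddx3y of the Y chromosome at 9.15 to 14.6 FPKM. RNA of Xist and of the Y chromosome was thus present together in all 12, where the label says male embryos, and the cause was not tested. Tsix, antisense to Xist, was at 1.98 to 4.11 FPKM, and the strand setting of the counting is not stated.

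Other features of the libraries touch the results below. Among the genes tested, 15 had mean FPKM of at least 20 in both MEF and iPSC and at least 8 times less in both D4 and D4_DUX, and 10 of them were processed pseudogenes. Ifi202b, an interferon-inducible gene, was at 62.4 FPKM in MEF, 0 in D4, 0 in D4_DUX and 43.7 in iPSC, and Rpl29, a ribosomal protein gene, was at 246, 15.9, 14.8 and 258. The labels do not say whether the day 4 cultures came from the same embryos or were prepared with the other libraries, so for such genes the preparation and the state of the cells cannot be told apart. Markers of other cell types were measured in the iPSC libraries: 11 of 18 macrophage markers passed the filter, and the summed FPKM of all 18 was 1765 to 1806 in MEF, 204 to 244 in D4, 52.3 to 54.2 in D4_DUX and 185 to 227 in iPSC. The summed FPKM of 30 fibroblast matrix genes was 15500 to 15962 in MEF, 11569 to 11737 in D4, 8504 to 8720 in D4_DUX and still 3546 to 4462 in iPSC. The 9 mesothelial markers summed to 10.3 to 10.7 FPKM in MEF, 420 to 445 in D4, 597 to 609 in D4_DUX and 6.76 to 8.12 in iPSC. In bulk libraries fewer cells of a type and less RNA per cell cannot be told apart.

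By whole-transcriptome distance, the D4_DUX cultures were no closer to iPSC than the control cultures. The root mean square difference to the iPSC mean, over the 16319 genes on the log2(FPKM + 1) scale, was 1.21 ± 0.00180 (SD, n = 3) for D4_DUX and 1.20 ± 0.000707 for D4. All 3 D4_DUX libraries lay farther than all 3 D4 libraries, by a mean of 0.00847 (exact two-sided permutation p = 0.100, the smallest value that 3 against 3 allows). MEF lay at 1.14 ± 0.00287, nearer than either day 4 group, and an iPSC library lay 0.176 ± 0.0198 from the mean of the other iPSC libraries. The median absolute difference, which gives large differences less weight, had the opposite order: 0.622, 0.622 and 0.618 in D4_DUX against 0.637, 0.629 and 0.635 in D4. The typical gene was slightly nearer to iPSC in D4_DUX, while the sum of squares was slightly larger.

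Measured only along the line from the MEF mean (0) to the iPSC mean (1), D4_DUX was farther along. Its libraries stood at 0.165, 0.163 and 0.170, and those of D4 at 0.120, 0.122 and 0.120. The groups did not overlap, and the difference was 0.0453 (exact two-sided permutation p = 0.100). Most of the way, from 0.166 ± 0.00385 to 1, remained.

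**Figure D1:**
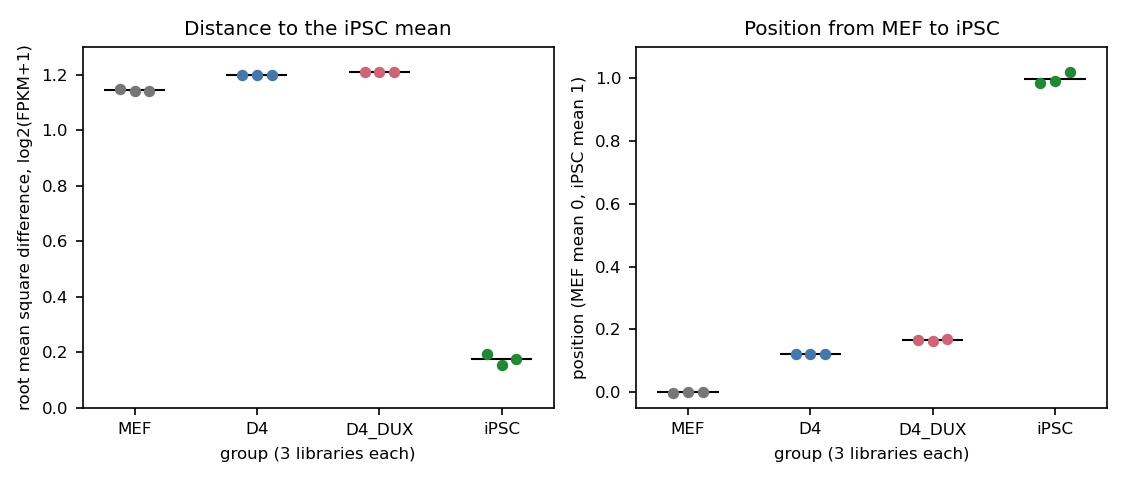
Distance of each library to the iPSC mean (left, root mean square difference in log2(FPKM+1) over 16319 genes) and its position on the line from the MEF mean at 0 to the iPSC mean at 1 (right). Points are libraries and bars are group means; D4_DUX lies at 1.21 and 0.166, D4 at 1.20 and 0.121.

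Gene by gene, most of the transcriptome differed. In limma, with p-values adjusted over all genes tested, 8068 genes were higher in iPSC than in D4_DUX (49.4%) and 5644 were lower (34.6%), which left 2607 without a call. For 13885 genes (85.1%) the 3 iPSC and the 3 D4_DUX libraries did not overlap. A difference of at least 2-fold was reached by 3262 genes in the higher direction (20.0%) and by 1690 in the lower (10.4%). Differences of at least 3 on the log2 scale numbered 360 higher and 123 lower. Of the 3262 genes, 1445 were at or above 1 FPKM in all iPSC libraries and in no D4_DUX library, and of the 1690, 401 had the reverse.

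The split between higher and lower depends on how libraries are scaled. The median difference over all genes was 0.17 with the deposited scaling, 0.02 with median-ratio size factors and -0.05 with quantile normalization, and 58.8%, 51.4% and 47.6% of the calls were then in the higher direction. A difference for a list is best read against these values, and a count of called members against the 49.4% higher and 34.6% lower over all genes. The control comparison shares the iPSC libraries: in iPSC against D4, 8198 genes were higher (50.2%) and 5496 lower (33.7%).

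Among genes named by the rule, which leaves out predicted genes, those farthest above D4_DUX included genes of the pluripotent state. The predicted gene Gm42047, picked after its values were seen, was at 127, 138 and 137 FPKM in iPSC. It was at most 0.0342 in D4_DUX, with means of 41.6 in MEF and 0.0254 in D4, so the far end is not made of pluripotency genes alone. Gm42047 belongs to the 15 genes above that were high in MEF and iPSC and low in both day 4 groups. For it the preparation and the state of the cells cannot be told apart. Dppa5a, an RNA-binding protein of pluripotent cells on chromosome 9 (mm10, 78367052 to 78368177), stood at 667, 666 and 710 FPKM in iPSC and was listed at 0 in all 3 D4_DUX libraries. Its fitted difference of 9.41 (SE 0.06, limma adjusted p = 4.50e-16) depends on the 1 added before the logarithm. Nanog, the homeobox factor at the centre of the network (chromosome 6 of mm10, 122707489 to 122714633), stood at 99.2, 111 and 127 FPKM in iPSC and at 0.218, 0.191 and 0.121 in D4_DUX. The D4 libraries, at 0.327, 0.225 and 0.278, were all above those of D4_DUX, but the step of -0.12 was not called (adjusted p = 0.286). Tdgf1, a co-receptor of Nodal, was at 203 ± 16.8 FPKM (SD, n = 3) in iPSC and at most 0.0430 in D4_DUX. Utf1, a chromatin factor of pluripotent cells, stood at 128, 123 and 147 FPKM against at most 0.0307. For these genes the D4_DUX libraries were near 0, as were those of D4. Dppa5a, Nanog, Tdgf1 and Utf1 thus passed the filter only through iPSC, which set their direction.

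As a group, all 16 naive pluripotency factors were higher in iPSC by at least 2-fold, with a median difference of 4.99 against 0.17 over all genes. Of the 16, 13 passed the filter only through iPSC, so for these the direction was set by the filter. In the step from D4 to D4_DUX 3 of them fell and 0 rose, where 14.5% of all genes fell and 21.0% rose. Klf5, a Krüppel-like factor, was at 0.696, 0.701 and 0.773 FPKM in D4 and 0.362, 0.379 and 0.281 in D4_DUX, and Klf2 and Tbx3 were the others. The step of Klf2 (-0.24, adjusted p = 0.0459) lost its call in 9 of the alternatives. iPSC held 68.9, 67.7 and 73.0 FPKM of Klf5. The 3 were named after their values were seen. All 19 late effectors (the Dppa family, Tdgf1, Lin28a and others) were higher in iPSC, with a median of 4.60, and 15 passed only through iPSC. Of 9 formative and primed genes tested, 7 were higher and 2 lower, and 4 passed only through iPSC. Dnmt3b, a de novo DNA methyltransferase, was at 36.4, 33.4 and 34.2 FPKM in iPSC and 0.422, 0.292 and 0.348 in D4_DUX.

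The transgene factors differed from this pattern, and for them FPKM pools transgene and endogenous transcripts. Pou5f1 was at 50.9, 46.0 and 57.9 FPKM in D4, 73.6, 71.7 and 71.8 in D4_DUX, and 202, 206 and 222 in iPSC. Sox2 was at 69.2, 59.3 and 73.8 in D4, 98.4, 90.4 and 96.5 in D4_DUX, and 131, 126 and 137 in iPSC. Both rose in D4_DUX toward iPSC, leaving differences of 1.52 (adjusted p = 7.18e-10) and 0.46 (adjusted p = 0.000552). With 0.1 added before the logarithm the step of Sox2 lost its call (adjusted p = 0.0543). Klf4 and Myc also rose, but away from iPSC. Klf4 was at 98.2, 95.4 and 100 FPKM in D4, 131, 123 and 128 in D4_DUX, and 49.4, 54.4 and 62.6 in iPSC. Myc was at 103, 108 and 107 in D4, 137, 129 and 129 in D4_DUX, and 20.5, 22.1 and 22.1 in iPSC. The differences left were -1.19 and -2.56. The sum of the 4 factors was 414 to 440 FPKM in D4_DUX and 402 to 444 in iPSC, against 309 to 339 in D4.

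**Figure D2:**
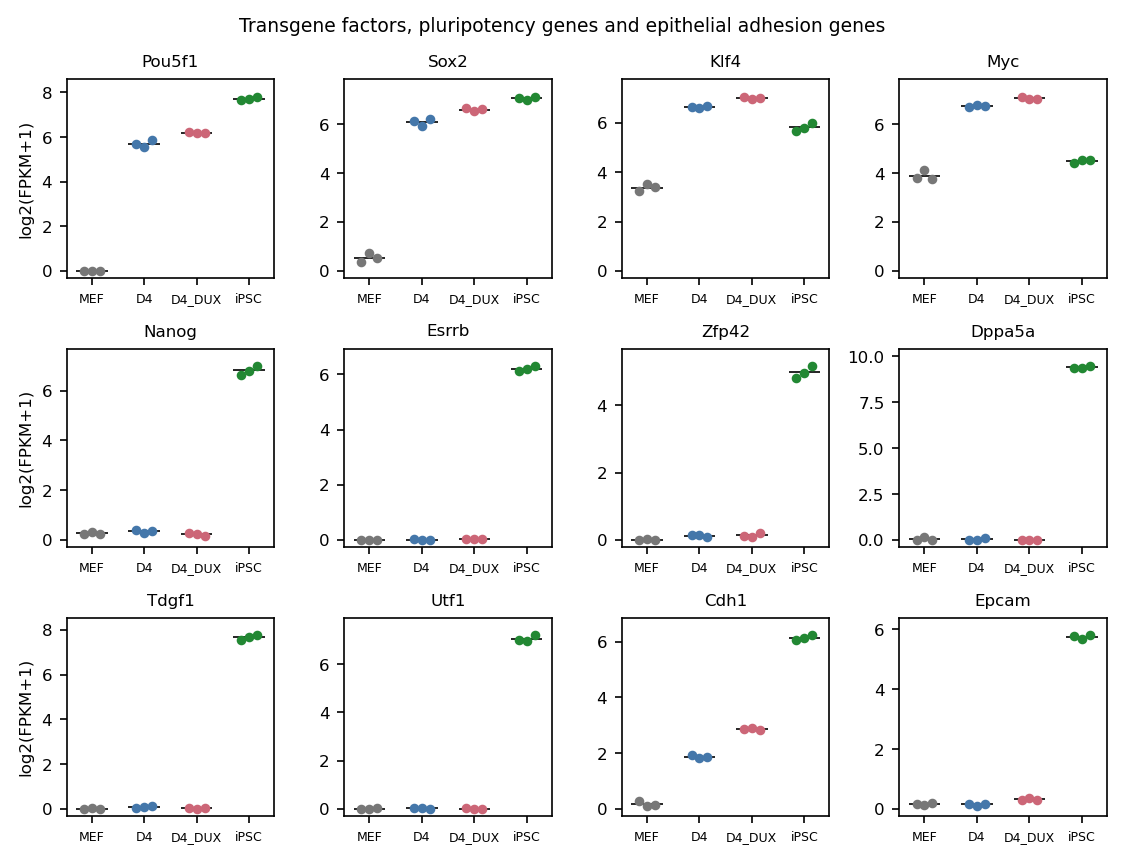
Log2(FPKM+1) of the 4 transgene factors, of pluripotency genes and of 2 epithelial adhesion genes in each library; points are libraries and bars group means, and each panel has its own axis. Pou5f1, Sox2 and Cdh1 step from D4 to D4_DUX in the direction of iPSC, Klf4 and Myc step away from it, and Nanog, Esrrb, Zfp42, Dppa5a, Tdgf1 and Utf1 stay near 0 in both day 4 groups.

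Germline genes, many of which pluripotent cells also transcribe, were near 0 in both day 4 groups. All 15 tested members were higher in iPSC, all passed only through iPSC, and 0 of 15 were called between D4 and D4_DUX. The summed FPKM of the 20 germline genes was 2.95 to 3.26 in D4, 2.00 to 2.28 in D4_DUX and 216 to 235 in iPSC, so the D4_DUX libraries lay below those of D4. Dazl, an RNA-binding protein of germ cells, was at 18.3, 22.4 and 23.6 FPKM in iPSC and at most 0.0487 in D4_DUX. Genes of the 2-cell stage lay below the filter in both groups. The summed FPKM of the 20 such genes in the table was 0.232 to 0.307 in D4, 1.12 to 1.70 in D4_DUX and 2.90 to 6.19 in iPSC. Their summed level in D4_DUX was above all D4 libraries and below all iPSC libraries, without a test.

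Cell cycle and chromatin genes formed the next layer of the distance. Of 25 DNA replication genes 24 were higher in iPSC, with a median difference of 1.99, and all 25 mitosis genes were higher, with a median of 1.76. Of all genes tested, 49.4% were higher. Mcm5, a subunit of the replicative helicase, was at 85.4, 85.2 and 94.1 FPKM in iPSC and 12.1 ± 0.225 (SD, n = 3) in D4_DUX. Ccnb1, the cyclin of mitotic entry, was at 82.6, 86.7 and 83.5 in iPSC, 10.9, 10.5 and 10.4 in D4_DUX and 12.1, 13.1 and 13.0 in D4. Both genes were far from their iPSC levels at day 4, and Ccnb1 was farther in D4_DUX than in D4 (step -0.24, adjusted p = 0.00118). In this step 16 of the 25 mitosis genes fell and 0 rose, where 14.5% of all genes fell.

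The G1 regulators lay on the other side. Of 13 CDK inhibitors and G1 cyclins 9 were lower in iPSC and 2 higher, where 34.6% and 49.4% of all genes were. The median difference of this list was -1.05. Ccnd1, cyclin D1, which carries cells from G1 into S phase, was at 275, 268 and 275 FPKM in D4, 491, 483 and 482 in D4_DUX and 43.1, 39.7 and 40.2 in iPSC. MEF had a mean of 16.7. The day 4 cultures thus stood above both ends, and D4_DUX stood highest, with a step of 0.83 (adjusted p = 1.99e-07) and a difference left of -3.53 (adjusted p = 1.31e-14). Ccnd2 was at 138, 140 and 144 FPKM in D4_DUX and 35.7, 32.2 and 28.5 in iPSC, and Cdkn2a, which encodes cell cycle inhibitors of senescence, at 83.9, 91.5 and 93.4 against 13.0, 11.5 and 9.75.

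Of 14 DNA methylation enzymes 10 were higher in iPSC and 2 lower, with a median of 1.16. Tet1, which oxidises methylcytosine, was at 33.5, 36.4 and 42.0 FPKM in iPSC and 0.210, 0.196 and 0.219 in D4_DUX. Of 24 polycomb genes 16 were higher and 6 lower. Jarid2, a partner of the polycomb complex 2, was at 34.8, 36.9 and 40.2 FPKM against 1.87, 1.92 and 1.71. All 19 genes of serine and one-carbon metabolism were higher, with a median of 1.03. Gldc, the glycine decarboxylase, was at 25.5, 23.1 and 26.1 FPKM against 0.0988, 0.0244 and 0.0823. Over all genes, 49.4% were higher in iPSC and 34.6% lower. The filter set the direction of 3 methylation, 1 polycomb and 2 one-carbon genes that passed only through iPSC. It also set that of 1 polycomb gene that passed only through D4_DUX. In these 3 lists few members moved between D4 and D4_DUX: 2 rose in the methylation list, 4 rose and 1 fell in the polycomb list, and 2 rose and 1 fell in the one-carbon list. Over all genes, 21.0% rose and 14.5% fell.

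At the other end, the largest excess of D4_DUX over iPSC was that of genes low in both MEF and iPSC. Msln, mesothelin, a surface protein of mesothelium (chromosome 17 of mm10, 25748613 to 25754378), stood at 473, 470 and 465 FPKM in D4_DUX and 0.570, 0.798 and 0.578 in iPSC. MEF had a mean of 1.45 and D4 held 342, 350 and 327. Msln was thus high only in the day 4 groups, and its difference left was -8.16 (SE 0.10, adjusted p = 1.69e-14). Aldh3a1, an aldehyde dehydrogenase of the corneal epithelium, was at 261, 259 and 250 FPKM in D4_DUX, 192, 198 and 193 in D4 and at most 0.364 in iPSC. Clec3b, tetranectin, was at 213, 200 and 188 FPKM in D4_DUX, 69.5, 73.2 and 70.8 in D4 and at most 0.356 in iPSC. Msln, Aldh3a1 and Clec3b were below 1 FPKM in every iPSC library. They passed the filter only through D4_DUX, which set their place above iPSC. Prelp, a matrix proteoglycan, was at 690, 691 and 669 FPKM in D4_DUX and 2.73, 3.28 and 3.23 in iPSC. Its step of 0.25 (adjusted p = 0.0430) lost its call in 15 of the alternatives. All 9 mesothelial markers were lower in iPSC, with a median of -2.18, but 7 passed the filter only through D4_DUX, which set that direction. In the step 7 of the 9 rose, where 21.0% of all genes did. Of tested genes, 38 had means of at least 20 FPKM in both day 4 groups and at least 8-fold less in MEF and iPSC. Msln, Aldh3a1, Clec3b and Ly6c1 were among them. For their difference from MEF and iPSC, the preparation and the state of the cells cannot be told apart. Of the 38, 20 rose from D4 to D4_DUX and 3 fell.

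Fibroblast matrix genes were lower in iPSC as a group, with 24 of 30 lower, 4 higher and a median of -1.33. Among all genes tested, 34.6% were lower and 49.4% higher. Col1a2, a chain of collagen I, was at 590, 590 and 560 FPKM in D4_DUX and 117, 95.1 and 74.5 in iPSC. Col5a1 was at 256, 250 and 252 against 42.0, 35.3 and 29.3. In both genes iPSC replicate 3 was lowest and replicate 1 highest. Hox genes, which record the position of the fibroblast in the body, were lower in 26 of 27 cases with a median of -0.77, a direction that the filter set for the 8 that passed only through D4_DUX. Hoxc8 was at 11.9, 12.5 and 12.3 FPKM in D4_DUX and 3.86, 3.91 and 3.58 in iPSC.

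Of the 16319 genes, 5797 (35.5%) changed between D4 and D4_DUX, most by little. In that step 3423 genes rose (21.0%) and 2374 fell (14.5%), and only 72 rose (0.441%) and 107 fell (0.656%) by 2-fold or more. The median absolute step was 0.13, against a median absolute difference left of 0.61. Each changed gene was placed by 3 calls that share libraries, so the class counts are descriptions. Toward means that the step and the difference left had the same sign, and reached that no difference to iPSC was called any more. Past means that the step crossed the iPSC level, and away that the step led from a called difference to a larger one. Departed means that D4 did not differ from iPSC by the test and D4_DUX did.

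Movement toward iPSC and movement away from it were about equally common. Toward held 2288 genes (14.0%) and away 2020 (12.4%). Reached held 697 (4.27%), departed 636 (3.90%) and past 156 (0.956%). With the step and the difference left at 0.5 or more on the log2 scale, and for past and away also the gap between iPSC and D4, toward held 180 genes, away 264, departed 132 and past 14. For toward, the starting gap must hold both the step and the difference left, so this cut asks for a larger starting gap than for away. The 180 and 264 are therefore not compared. Among the genes toward iPSC at this size, 121 fell and 59 rose, and among those away, 159 rose and 105 fell.

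**Figure D3:**
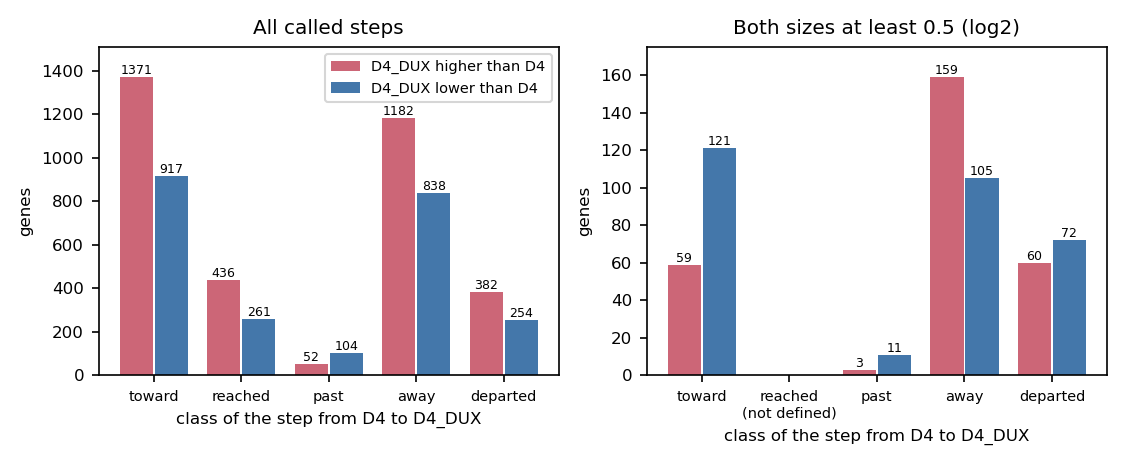
Number of genes in each class of the step from D4 to D4_DUX, split by direction, over all called steps (left) and with both sizes at least 0.5 on the log2 scale (right; for past the gap between iPSC and D4 as well; reached has no such size). At this size away, which also needs the gap at 0.5 or more, holds 159 rising genes and toward 59. Toward needs a larger starting gap, so these counts are not compared.

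Among genes that rose toward iPSC, Cdh1 led. Cdh1 encodes E-cadherin, the adhesion protein of epithelial and pluripotent cells (chromosome 8 of mm10, 106603351 to 106670246). It was at 2.78, 2.54 and 2.61 FPKM in D4, 6.31, 6.44 and 6.06 in D4_DUX, and 65.2, 68.3 and 74.7 in iPSC. The groups did not overlap, and the step of 1.00 (adjusted p = 9.07e-07) left a difference of 3.27 (SE 0.06, adjusted p = 4.62e-13). Epcam, another adhesion molecule of epithelia and pluripotent cells, was at 0.131, 0.0826 and 0.128 FPKM in D4, 0.223, 0.288 and 0.238 in D4_DUX, and 53.8, 50.0 and 55.2 in iPSC. Its step of 0.17 (adjusted p = 0.0236) was not called without replicate 2 or 3 of D4_DUX or replicate 2 of D4. Cldn4, a tight junction claudin, was at 0.0244, 0.288 and 0.199 in D4, 0.860, 0.973 and 0.794 in D4_DUX, and 23.7, 23.2 and 27.2 in iPSC. These 3 genes covered a small part of the way to the iPSC level. Cobl, an actin nucleator, was at 11.2, 11.2 and 11.7 FPKM in D4_DUX and 27.3, 30.0 and 32.2 in iPSC, from 6.44, 6.67 and 5.85 in D4.

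The epithelial list was mixed. Of 26 tested members 18 were higher in iPSC and 7 lower, and 8 rose and 1 fell in the step, of which 4 were toward. The shares of all genes were 49.4% higher and 34.6% lower in iPSC, and 21.0% rose and 14.5% fell in the step. The filter set the direction against iPSC of 11 members that passed only through iPSC and of 3 that passed only through D4_DUX. Grhl2, an epithelial transcription factor, was at 10.9, 11.7 and 11.9 FPKM in iPSC and at most 0.00437 in D4_DUX. Pkp1, a plakophilin of desmosomes, went the other way, with 7.39, 6.90 and 7.17 in D4, 14.6, 14.7 and 14.4 in D4_DUX and at most 0.0538 in iPSC. The list of stratified and mucosal surface epithelium lay mostly above iPSC: 16 of 18 tested members were lower in iPSC, 10 rose in the step and 8 were away. The filter set the direction of 9 members that passed only through D4_DUX and of 1 that passed only through iPSC. With 0.1 added before the logarithm 6 rose. Krt14, a keratin of basal epidermis, was at 19.6, 18.9 and 22.4 FPKM in D4, 50.1, 44.4 and 54.3 in D4_DUX and at most 0.195 in iPSC. Grhl2 was named after its values were seen.

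Genes that fell toward iPSC included matrix genes. Of the 30 on the fibroblast matrix list 20 fell, 15 of them toward iPSC, and 3 rose, a number that was 0 to 3 when single libraries were left out. The same step had 14.5% of all genes falling and 21.0% rising. Lox, the enzyme that crosslinks collagen, was at 1051, 1040 and 1050 FPKM in D4, 553, 599 and 601 in D4_DUX and 200, 177 and 149 in iPSC. Pgm5, a protein of muscle adhesion sites, was at 8.94, 10.5 and 9.89 in D4, 3.55, 3.35 and 3.96 in D4_DUX and 0.674, 1.00 and 0.649 in iPSC. Fos, a subunit of AP-1, was at 22.0, 23.6 and 28.2 in D4, 7.59, 8.66 and 8.01 in D4_DUX and 3.19, 3.68 and 3.63 in iPSC. MEF had 3.32 FPKM of Fos, so its D4_DUX level lay between D4 and both ends. Ret, a receptor tyrosine kinase, was at 6.93, 6.95 and 7.05 in D4, 2.17, 2.39 and 2.37 in D4_DUX and 0.461, 0.499 and 0.453 in iPSC.

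Among mesenchymal factors and cytoskeletal genes, 20 of 27 were lower in iPSC, 13 fell and 6 rose in the step. Over all genes, 34.6% were lower, 14.5% fell and 21.0% rose. The classes were 9 toward, 3 reached and 6 away. Ccn2, a matricellular growth factor, was at 169, 184 and 164 FPKM in D4, 49.6, 57.2 and 55.0 in D4_DUX and 51.1, 43.4 and 35.8 in iPSC. It was named after its values were seen. Its difference from iPSC of -0.32 (adjusted p = 0.0192) lost its call without replicate 3 of iPSC (adjusted p = 0.0846), replicate 2 of D4_DUX (adjusted p = 0.0668) or replicate 3 of D4_DUX (adjusted p = 0.0511). Vim, vimentin, was at 625, 620 and 620 in D4_DUX and 178, 162 and 148 in iPSC, and S100a4, a calcium-binding protein of motile cells, was at 816, 799 and 817 against 28.6, 29.6 and 26.3. S100a4 moved away, from 621, 630 and 593 in D4. D4_DUX was thus near iPSC for Ccn2 and far above it for Vim and S100a4.

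Of 24 cholesterol synthesis genes 19 fell in the step, 1 rose and 12 were toward iPSC, and 16 were lower in iPSC than in D4_DUX. Over all genes, 14.5% fell and 21.0% rose in the step. Of 18 genes of the NRF2 and glutathione defence 12 rose, 0 fell and 8 were toward. Txnrd1, thioredoxin reductase, was at 19.7, 18.3 and 18.9 in D4, 21.4, 22.1 and 22.3 in D4_DUX and 50.0, 49.8 and 51.2 in iPSC. Mgst1, a glutathione transferase of membranes, was lower in iPSC (19.4, 19.8 and 18.4) and rose away from it, to 62.4, 65.4 and 65.3.

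Overshoot in the step from D4 was rare, with 156 genes (0.956%) past the iPSC level. Seen from MEF, D4_DUX lay beyond the iPSC level for 814 genes higher than in MEF (4.99%) and 526 lower (3.22%). Krt8, a keratin of simple epithelia (chromosome 15 of mm10, 101996698 to 102004482), stood at 2.91, 2.21 and 2.58 FPKM in D4, 11.3, 9.85 and 9.71 in D4_DUX and 4.76, 5.57 and 4.54 in iPSC. D4_DUX was above all iPSC libraries, with a step of 1.66 and a difference left of -0.92 (SE 0.09, adjusted p = 1.51e-06). Aqp3, a water and glycerol channel of epithelia, was at 20.8, 23.7 and 21.2 in D4, 53.6, 52.6 and 58.7 in D4_DUX and 29.2, 31.4 and 35.5 in iPSC, and MEF had 0.191. Neat1, the RNA scaffold of paraspeckles, was at 11.1, 11.1 and 12.5 in D4, 27.7, 24.3 and 25.8 in D4_DUX and 15.6, 17.1 and 15.6 in iPSC. These 3 genes led the rule for upward overshoot, which ranks by the smaller of step and difference left.

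The other upward overshoots named by the rule belong to the interferon response. Stat2 and Irf9 are subunits of the factor that interferon activates, and Parp12 is an interferon-induced ADP-ribosyltransferase. Stat2 was at 13.4, 16.9 and 13.0 FPKM in D4, 27.2, 26.6 and 26.6 in D4_DUX and 23.4, 15.6 and 18.3 in iPSC, with a difference left of -0.48 (adjusted p = 0.00743). Irf9 was at 8.19, 10.4 and 7.49 in D4, 14.3, 13.9 and 13.7 in D4_DUX and 12.4, 9.66 and 9.81 in iPSC. D4_DUX lay above all iPSC libraries for both, and iPSC was above D4 by 0.37 and 0.26 (adjusted p = 0.0294 and 0.0450). The D4 and iPSC libraries overlapped for both genes, with the highest D4 values at 16.9 and 10.4. The class past rests on this gap, whose call was not rerun for single genes under the alternatives. Of 33 tested interferon response genes 19 rose in the step and 0 fell, where 21.0% of all genes rose. Of these 19, 2 were toward, 7 reached, 2 past, 4 away and 4 departed. D4_DUX was above iPSC for 17 of the 33 and below for 4, where it was for 34.6% and 49.4% of all genes.

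Within D4, replicate 2 was the highest library for all 33 of these genes, and within iPSC replicate 1 was the highest for all 33. Single libraries thus stood apart in this group of genes, and D4_DUX had no such library. Ifit1 was at 12.3, 20.6 and 8.66 FPKM in D4, 26.9, 28.2 and 26.4 in D4_DUX and 53.1, 23.8 and 35.9 in iPSC, and its missing call against iPSC (0.38, adjusted p = 0.273) does not show equal levels. The step of Ifit1 (1.00, adjusted p = 0.0287) lost its call in 6 of the alternatives. Leaving out single libraries gave 14 (without replicate 3 of D4) to 22 (without replicate 2 of D4) rising members and 0 falling, and with no filter on low values 14 rose. Oas2, which makes 2′-5′ oligoadenylate on double-stranded RNA, departed: it was at 6.02, 9.80 and 5.49 in D4, 24.0, 23.9 and 24.2 in D4_DUX and 7.22, 5.04 and 6.12 in iPSC. D4 and iPSC overlapped (gap -0.16, adjusted p = 0.437), and D4_DUX was above both, with a difference left of -1.82 (adjusted p = 1.83e-06).

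Because these genes moved together, the 250 bases before their start were read from RefSeq promoters on GRCm38.p6. The letters searched were GAAANNGAA on both strands, the core of the interferon-stimulated response element, with N for any base and overlaps allowed. Of the 19 rising genes 13 had a promoter in the table, and 7 of these (53.8%) held the motif. Among the 14 other tested members 12 had one and 4 (33.3%) held it, against 2342 of all 32851 promoters (7.13%). The members were chosen as interferon genes, so these shares describe the list. Promoters of 4 rising genes with a match are shown, 1 each from 4 of the classes: Trim25 (toward), a ubiquitin ligase of RNA sensing, Oas1a (reached), another oligoadenylate synthetase, Stat2 (past) and B2m (away), the light chain of MHC class I. They read 5′ to 3′ in the direction of the gene, with the matched letters in capitals.
Trim25, chr11:88999153-88999402, plus strand: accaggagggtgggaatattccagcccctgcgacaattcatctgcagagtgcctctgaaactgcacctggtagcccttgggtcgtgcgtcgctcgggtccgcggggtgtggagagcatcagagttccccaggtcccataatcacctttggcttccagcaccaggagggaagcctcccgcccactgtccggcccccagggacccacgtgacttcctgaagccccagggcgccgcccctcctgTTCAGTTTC
Oas1a, chr5:120907526-120907775, minus strand: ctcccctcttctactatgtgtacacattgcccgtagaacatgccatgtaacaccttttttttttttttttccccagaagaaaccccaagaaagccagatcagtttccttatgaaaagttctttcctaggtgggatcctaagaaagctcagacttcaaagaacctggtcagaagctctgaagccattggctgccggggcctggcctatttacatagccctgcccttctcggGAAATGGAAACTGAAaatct
Stat2, chr10:128270248-128270497, plus strand: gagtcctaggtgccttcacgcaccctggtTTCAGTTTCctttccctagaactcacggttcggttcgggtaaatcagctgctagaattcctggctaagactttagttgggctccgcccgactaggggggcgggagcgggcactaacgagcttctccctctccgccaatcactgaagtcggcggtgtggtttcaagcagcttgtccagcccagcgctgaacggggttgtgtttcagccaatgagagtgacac
B2m, chr2:122147437-122147686, plus strand: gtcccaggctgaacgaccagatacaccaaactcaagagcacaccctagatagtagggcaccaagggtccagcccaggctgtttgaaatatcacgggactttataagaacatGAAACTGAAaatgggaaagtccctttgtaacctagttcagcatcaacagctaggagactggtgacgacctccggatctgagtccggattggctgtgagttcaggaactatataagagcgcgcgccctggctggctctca
Oas1a held 2 matches and the others 1 each, and Irf9 and Xaf1 had none in this window. Trim25 was at 19.3, 20.4 and 18.5 FPKM in D4, 25.7, 26.7 and 26.8 in D4_DUX and 38.5, 31.8 and 35.0 in iPSC. Oas1a was at 8.98, 12.5 and 8.06 in D4, 20.9, 19.9 and 21.0 in D4_DUX, and 20.5 in replicate 1 and 14.2 in replicate 3 of iPSC. Its missing call against iPSC (-0.36, adjusted p = 0.0573) became a call in 9 of the alternatives. B2m was at 1015, 1293 and 981 in D4, 1353, 1448 and 1450 in D4_DUX and 662, 657 and 594 in iPSC. D4_DUX lay above D4 in all 3, below iPSC for Trim25, overlapping iPSC for Oas1a and above it for B2m. Trim25, Oas1a and B2m were chosen after their values were seen.

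Macrophage genes were among the downward overshoots. All 11 tested macrophage markers fell from D4 to D4_DUX, and 10 were higher in iPSC again, with a median of 1.36. Of all genes tested, 14.5% fell in the step and 49.4% were higher in iPSC than in D4_DUX. The classes were 6 past, 3 away, 1 departed and 1 reached, and with the filter over all 12 libraries 17 of 18 fell. Lyz2, the lysozyme of macrophages (chromosome 10 of mm10, 117277331 to 117282321), stood at 148, 164 and 135 FPKM in D4, 30.6, 30.0 and 32.4 in D4_DUX and 107, 119 and 84.0 in iPSC, with 1303 in MEF. Marco, a scavenger receptor, was at 6.59, 9.76 and 6.85 in D4, 1.40, 1.52 and 1.44 in D4_DUX and 6.14, 5.65 and 4.20 in iPSC. Fcer1g, a signalling chain of Fc receptors, was at 5.66, 5.49 and 5.07 in D4, 0.968, 0.788 and 0.860 in D4_DUX and 3.85, 3.34 and 2.11 in iPSC. In each of these genes D4_DUX was lowest and MEF highest. The defining markers Ptprc, C1qa and Aif1 stayed below the filter, and Ptprc was at most 0.153 FPKM in iPSC. The part that macrophage cells play in these values was not tested. Egr1, an immediate early transcription factor, also passed the iPSC level, with 28.0, 30.7 and 33.3 in D4, 7.58, 8.33 and 7.77 in D4_DUX and 20.1, 19.6 and 18.6 in iPSC.

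Immediate early genes fell in the step. All 13 tested members fell, where 14.5% of all genes fell, while 9 were higher and 3 lower in iPSC than in D4_DUX. The result was 6 away, 3 toward, 2 departed, 1 reached and 1 past. Ier2 was at 37.5, 41.8 and 41.8 FPKM in D4, 20.5, 20.0 and 19.2 in D4_DUX and 60.7, 59.6 and 64.3 in iPSC. Sgk1, a kinase induced by serum, was at 4.06, 4.31 and 4.33 in D4, 2.65, 2.61 and 2.29 in D4_DUX and 47.7, 51.0 and 49.8 in iPSC. Dusp6, a phosphatase that restrains ERK, was at 5.69 to 6.26 in D4_DUX and 47.3, 49.6 and 47.7 in iPSC. These signalling genes were thus lower than iPSC and became lower still.

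Several of the largest rises away from iPSC lay in 1 stretch of chromosome 15. Between Psca and Gm10238 (mm10, 74714839 to 75238768) lie the genes of the Ly6 family, small GPI-anchored or secreted surface proteins, and 12 genes of this stretch were tested. The 7 that rose, Psca, Slurp1, Lypd2, Ly6a, Ly6c1, Ly6c2 and Gm10238, were all away from iPSC, and over all genes 21.0% rose. Psca, Slurp1, Lypd2, Ly6c2 and Gm10238 were below 1 FPKM in every iPSC library and passed the filter only through D4_DUX, which set their place above iPSC. The ends of the stretch, Psca and Gm10238, were chosen after their rise was seen, so the count describes the stretch. Ly6c1 was at 56.0, 56.8 and 52.0 FPKM in D4, 245, 230 and 230 in D4_DUX and 1.69, 0.934 and 1.35 in iPSC, with a step of 2.08 (adjusted p = 2.58e-07) and a difference left of -6.68 (SE 0.11, adjusted p = 1.32e-13). Ly6a, the stem cell antigen Sca-1, was at 549, 593 and 521 in D4, 1010, 1029 and 1073 in D4_DUX and 42.4, 31.8 and 31.2 in iPSC. Slurp1, a secreted protein of squamous epithelia, was at 11.4, 11.2 and 11.6 in D4, 35.7, 33.0 and 35.8 in D4_DUX and at most 0.0130 in iPSC. D4_DUX was highest in all 3 genes. Their neighbours Them6, Ly6d, Ly6k and Ly6e showed no called step, and Lynx1 fell by 0.17 on the log2 scale, a call lost in 7 of the alternatives. Ly6e, the most abundant of these, was at 30.6, 31.2 and 30.2 FPKM in D4_DUX and 31.9, 28.5 and 27.6 in iPSC. Ly6c1, Ly6c2 and Gm10238 may share fragments, since members of this family are alike in sequence.

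Other genes that rose away were Tnxb, tenascin X, with 9.49, 8.90 and 8.60 FPKM in D4_DUX and at most 0.107 in iPSC, and Lypd2, another Ly6 protein, with 23.7, 21.4 and 19.5 against at most 0.112. Tnxb and Lypd2 passed the filter only through D4_DUX, which set their place above iPSC. Genes that fell away included Mmp9, a gelatinase, with 11.2, 11.8 and 10.3 in D4, 1.90, 1.59 and 2.01 in D4_DUX and 46.2, 43.1 and 29.6 in iPSC. Igfbp2, a binding protein of insulin-like growth factors, was at 10.5, 13.4 and 11.0 in D4, 3.54, 4.06 and 3.33 in D4_DUX and 45.3, 41.9 and 43.3 in iPSC. Cd68, a lysosomal protein of macrophages, was at 9.30, 9.71 and 8.78 in D4, 3.87, 3.67 and 3.04 in D4_DUX and 21.8, 25.0 and 25.8 in iPSC. In all 3, D4_DUX was below D4 and iPSC was above both. Mmp9 and Cd68 are also made by macrophages, whose markers fell in the same libraries, and the part of that cell type was not tested.

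Departed genes had no called difference between D4 and iPSC and a called one between D4_DUX and iPSC. The missing call for D4 does not show equal levels. Postn, periostin of the matrix, was at 44.1, 44.2 and 47.3 FPKM in D4, 12.6, 11.8 and 11.3 in D4_DUX and 47.8, 43.4 and 29.3 in iPSC. Ccl3, a chemokine, had a mean of 13.0 FPKM in D4, and stood at 2.26, 1.53 and 1.69 in D4_DUX and at 15.0, 16.3 and 11.7 in iPSC. Lcn2, lipocalin 2, was at 22.1, 23.5 and 21.4 in D4, 8.29, 9.03 and 7.55 in D4_DUX and 25.3, 21.4 and 14.6 in iPSC. D4_DUX lay below the other 2 groups for each. For Postn and Lcn2 the iPSC values fell in replicate order, as those of Col1a2 and Col5a1 did. Whether other cells in the iPSC libraries carry part of these levels was not tested. Smarca4, the ATPase Brg1 of the BAF complex, departed by a small amount: it was at 37.9, 35.2 and 37.3 in D4, 41.6, 40.0 and 40.3 in D4_DUX and 34.5, 35.8 and 37.0 in iPSC. Its step of 0.14 (adjusted p = 0.0144) was not called with quantile normalization, without replicate 1 of D4_DUX or without replicate 2 of D4. The short genes Mir7028, Mir7225, Snord50a and Snord57, whose FPKM rests on few fragments in libraries selected for polyadenylated RNA, were also in this class. The steps of Mir7225 and Snord57 lost their calls in 6 and 7 of the alternatives.

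**Figure D4:**
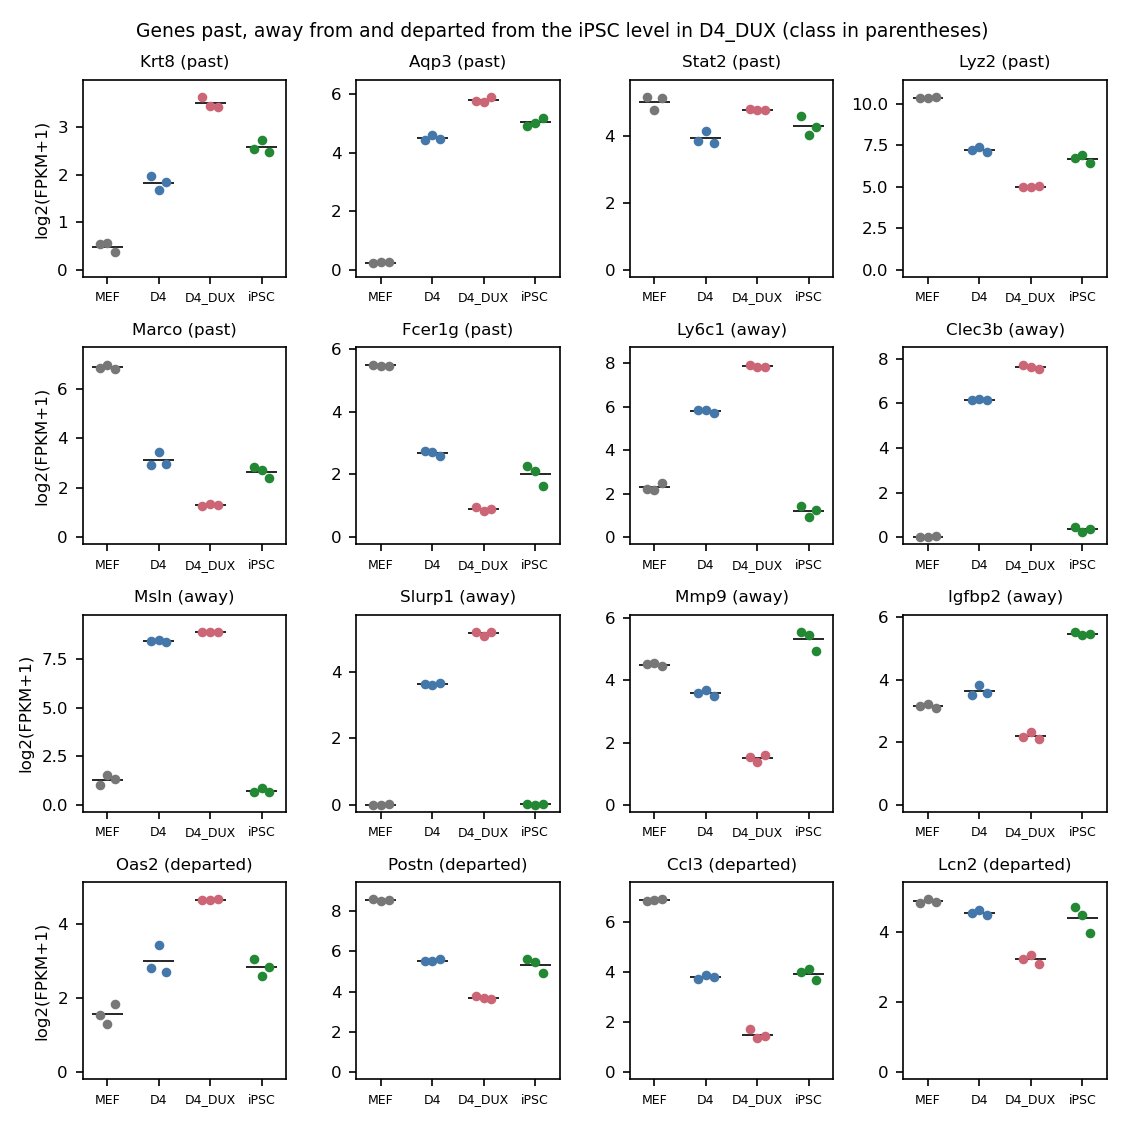
Log2(FPKM+1) in each library of 16 genes whose D4_DUX level lies past, away from or departed from the iPSC level; points are libraries, bars are group means and each panel has its own axis. Lyz2, Marco, Fcer1g, Postn and Ccl3 fall in D4_DUX below both D4 and iPSC, and Ly6c1, Clec3b, Msln and Slurp1 are high only in the 2 day 4 groups.

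Genes of energy metabolism differed in both directions. Of 25 glycolysis and lactate genes 18 were lower in iPSC and 5 higher, with a median of -0.61, and 7 rose and 5 fell in the step, 8 of them away. Over all genes, 34.6% were lower in iPSC, and 21.0% rose and 14.5% fell in the step. The filter set the direction against iPSC of 2 members that passed only through D4_DUX. Ldha, the lactate dehydrogenase subunit that favours lactate, was at 301, 298 and 289 FPKM in D4, 332, 330 and 336 in D4_DUX and 106, 104 and 105 in iPSC. Ldhb, the other subunit, was at 32.7, 34.5 and 29.8 in D4, 21.8, 23.4 and 23.9 in D4_DUX and 92.2, 88.0 and 84.3 in iPSC. Both moved away from iPSC, Ldha up and Ldhb down, with differences left of -1.65 and 1.89. Slc16a3, a lactate exporter, was at 27.6, 28.4 and 29.5 in D4_DUX and 3.53, 2.78 and 2.40 in iPSC. Among 42 nuclear-encoded subunits of the respiratory chain, iPSC was higher for 22 and lower for 7, close to the 49.4% of all genes called higher, with a median of 0.13 against 0.17 over all genes. With median-ratio size factors 15 were higher and 14 lower, and the median was -0.03. Of 22 genes of the tricarboxylic acid cycle 4 were higher and 9 lower, or 17 lower with median-ratio size factors.

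Chromatin enzymes linked to lactylation were mostly higher in iPSC. Ep300, an acetyltransferase that can also transfer lactyl groups, was at 7.11, 6.68 and 7.65 FPKM in D4, 8.19, 7.83 and 8.22 in D4_DUX and 15.6, 16.4 and 16.8 in iPSC. Its step of 0.16 (adjusted p = 0.0281) lost its call in 7 alternatives, and its difference left was 0.93 (adjusted p = 4.41e-09). Of 19 lactylation and acylation genes 14 were higher in iPSC and 4 lower, with a median of 0.77, and 6 rose and 1 fell in the step, or 3 rose with quantile normalization. Of 25 BAF subunits 17 were higher and 7 lower in iPSC, and 8 rose and 0 fell. Over all genes, 49.4% were higher and 34.6% lower, and 21.0% rose and 14.5% fell. Smarcd1, a BAF subunit, was at 24.6, 26.5 and 29.0 in iPSC and 4.37, 4.36 and 4.41 in D4_DUX, and Smarca2, the other ATPase of the complex, at 2.34, 2.58 and 2.33 against 10.2, 9.91 and 9.51.

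Of 24 p53 targets 18 were higher in iPSC and 6 lower, and 7 rose and 8 fell in the step. Over all genes, 49.4% were higher and 34.6% lower in iPSC, and 21.0% rose and 14.5% fell. Gadd45a, a stress response gene, was at 16.3, 18.4 and 17.2 FPKM in D4, 8.83, 9.67 and 9.48 in D4_DUX and 68.7, 63.1 and 60.4 in iPSC. Of 21 imprinted genes 11 were higher and 9 lower, near the shares over all genes. Peg10 was at 38.8, 40.5 and 48.7 in iPSC and 1.58, 1.39 and 1.45 in D4_DUX. The median of this list, 0.11, changed sign with quantile normalization (-0.18). Of 9 AP-1 subunits 3 were higher and 6 lower in iPSC. Small lists of other cell types gave 2 higher and 2 lower endothelial genes, 1 and 2 muscle genes, 2 and 4 neural genes, 7 and 1 endoderm genes, and 2 and 1 trophoblast genes. Of these, 5 endoderm, 2 trophoblast, 1 neural and 1 muscle gene passed the filter only through iPSC, as did 2 endothelial genes, and 1 endothelial gene passed only through D4_DUX.

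**Figure D5:**
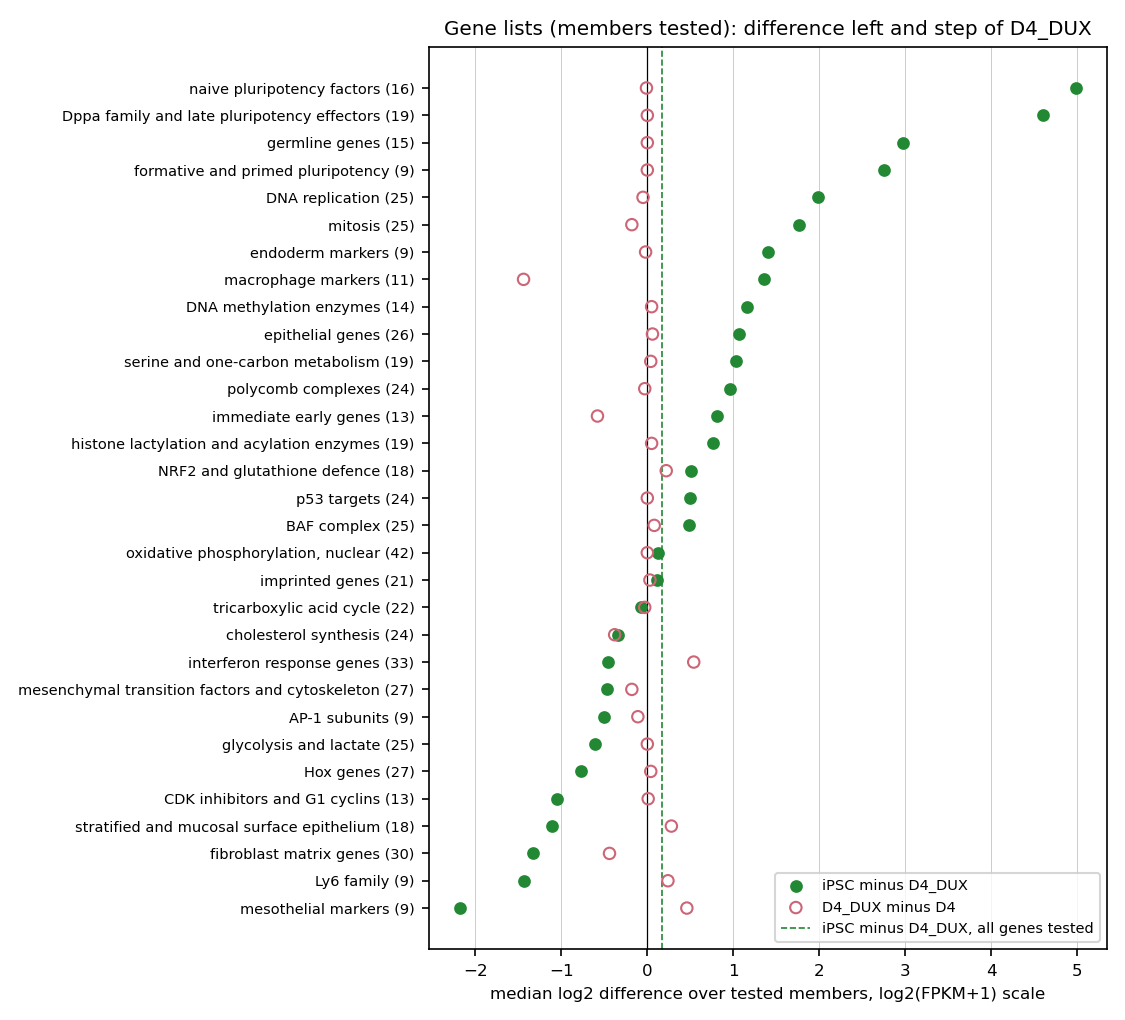
Median log2 difference over the tested members of each list with at least 9 of them (number in parentheses), for iPSC minus D4_DUX (filled) and for D4_DUX minus D4 (open); the dashed line is the median over all genes tested, 0.17. Naive pluripotency factors lie at 4.99 and mesothelial markers at -2.18, and most open points lie near 0, with macrophage markers at -1.44.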

How the data were processed

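RNA-seq libraries of polyadenylated RNA, made with a stranded kit and sequenced as read pairs per the labels' protocols, were available as 1 gene table. Its values are FPKM computed by the authors before they deposited the table. The aligner and counter are not stated, and the build is mm10 per the submitters' processing notes. Of the gene identifiers, 40225 (99.6%) matched the annotation used for positions, and 169 genes share a symbol.

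A gene was tested when 3 or more of the 6 iPSC and D4_DUX libraries reached 1 FPKM, the rule that defines the members. The filter does not read D4 or MEF, so genes high only there were not tested. Log2(FPKM + 1) was fitted with limma 3.58.1 in R 4.3.3 with 4 group means over 12 libraries and a variance trend, and p-values were adjusted by Benjamini-Hochberg over all 16319 genes, with a threshold of 0.05. The script was tested on simulated data. Differences are on the log2(FPKM + 1) scale and understate the change of low genes. Single values per library were compared by exact permutation. At the estimated depth, 44.1 to 46.4% of low values per library corresponded to whole fragments within 0.01, so no count test was run. No pair of the 66 library pairs was identical, and correlations within groups were 0.9936 to 0.9966.

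Named genes are a fixed set of factors, the 8 genes at each end of the difference between iPSC and D4_DUX, up to 6 genes per direction of the toward, past, away and departed classes, and up to 4 genes with the largest difference per list, with a mean FPKM of at least 5 outside the lists and no overlap between libraries. Genes named outside the rule were chosen after their values were seen, among them Ccn2, Lox, Ifit1, Trim25, Oas1a, B2m, Klf2, Klf5, Tbx3, Grhl2, Rpl29, Ifi202b, Psca, Gm10238, Them6, Ly6d, Ly6k, Ly6e, Lynx1, Xist, Tsix and Ddx3y. Symbols of predicted genes, clones and Rik transcripts were left out when genes were named from the ends and the classes. The members and the 37 lists were chosen with earlier results of these data known. Alternatives were the filter, the added constant, scaling by median-ratio size factors, quantiles or TPM, the variance trend, the replicate block, protein-coding genes alone, a fit on 6 libraries and leaving out each library.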

Additional observations from a re-analysis of the deposited data

How the results depend on the processing

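No called difference of a named gene changed sign under the alternatives run. Medians did: over all tested genes 0.17 became -0.05 with quantile normalization, and 58.8% of calls in the higher direction became 47.6%. The respiratory chain median of 0.13 became -0.03 with median-ratio size factors, the imprinted one of 0.11 became -0.18 with quantile normalization or an FPKM minimum of 5, and those of the small neural and muscle lists became 0.01 and 0.02 with no filter. iPSC against D4_DUX called about the same numbers when each library was left out in turn (7894 to 8077 higher, 5456 to 5659 lower). With an FPKM minimum of 5, 4953 genes were higher in iPSC than in D4_DUX and 2024 by 2-fold, 5100 were higher than in D4, and the step had 1527 lower genes, 46 higher and 55 lower by 2-fold. The classes then held 387 genes reached, 95 past, 368 departed and 5754 not moved, and at 0.5 or more 116 toward, 7 past and 59 departed. The distance to iPSC then differed by 0.0114 and the position by 0.0370. With no filter, 13156 genes were higher in iPSC than in D4_DUX, 13271 higher than in D4 and 32961 not moved, with 0.00476 for distance and 0.0490 for position. Adding 0.5 gave 120 genes higher by 2-fold in the step, 0.0119 and 0.0407. Adding 0.1 gave 200 higher and 228 lower by 2-fold, 382 toward, 22 past and 575 away at 0.5 or more, 0.0178 and 0.0311. Quantile normalization put 2552 genes lower in iPSC by 2-fold. Rescaling to TPM put 4928 higher by 2-fold, with 195 and 218 in the step, 321 toward, 29 past, 510 away and 303 departed at 0.5 or more, and a distance of 0.0113. Protein-coding genes alone gave 41 higher by 2-fold in the step, 76 departed at 0.5 or more, 0.0123 and 0.0499. A filter over all 12 libraries, chosen after seeing the data, gave 0.00692 and 0.0498. The causes were not tested, except that fewer or more genes enter with another filter. Leaving out single libraries gave 2639 to 3627 higher and 1924 to 2545 lower genes in the step, and 9 to 16 genes past at 0.5 or more, with 9 without replicate 3 of iPSC.

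The replicate numbers did not pair the samples, since the correlations of same-numbered deviations between iPSC and D4_DUX were -0.08, 0.00 and -0.05. With the replicate block, 8042 genes were higher and 5612 lower in iPSC than in D4_DUX, and 3179 were higher and 2270 lower in the step. For the named genes, 4300 alternative values were computed: 4177 stayed on the same side of the threshold, 85 lost the call and 38 gained one. Depth limits the genes near 0 in D4_DUX, whose fitted differences rest on the added constant.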

Other observations

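Seen from MEF, the D4_DUX cultures lay between the fibroblasts and iPSC for 2286 genes higher and 1075 lower than in MEF. They lay beyond the iPSC level for 814 higher and 526 lower genes, and on the far side of MEF from iPSC for 1623 higher and 1524 lower genes. These counts share libraries with those of the report and are descriptions.

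Other RNA classes differed in level as well. Of 781 processed pseudogenes tested, 220 were higher and 18 lower in iPSC by at least 2-fold, with a median difference of 0.40, against 0.13 over 12761 protein-coding genes. Long intergenic RNAs, 363 in number, had a median difference of 0.95, with 178 higher and 31 lower by 2-fold. Platr10, a long RNA of pluripotent cells, was at 85.2, 79.5 and 81.4 FPKM in iPSC and at most 0.0431 in D4_DUX. Pseudogenes can share fragments with their parent genes, and how the authors counted such fragments is not stated.

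Anxa8, an annexin, was high in both day 4 groups and low in MEF and iPSC, with means of 11.2 FPKM in MEF, 468 in D4, 469 in D4_DUX and 16.2 in iPSC. For this pattern the preparation and the state of the cells cannot be told apart. The octamer ATGCAAAT, the letters bound by Pou5f1, was found in 250 bases before the start of 1 of 21 pluripotency genes (4.76%, Zfp42) and of 526 of 32851 promoters (1.60%).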
